A study of Mus musculus with 6 samples.

Results

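Aminoacyl-tRNA synthetases are the enzymes that join each amino acid to its transfer RNA, the step that fixes which amino acid a codon will be read as. Animal cells make one set for the cytosol and another, also encoded in the nucleus, for the mitochondrial matrix, where the few proteins of the mitochondrial genome are translated. The genes described here were a fixed list of 36, 20 with cytosolic and 16 with mitochondrial products, and each was followed through the probe set with the highest mean among those tied to that gene symbol alone. In this way 34 of the 36 were measured, 18 of 20 cytosolic and 16 of 16 mitochondrial, out of 19938 genes with a named probe set. The alanyl enzyme gene Aars had only a probe set that it shares with Exosc6, and the aspartyl enzyme gene Dars had no named probe set, so neither has a value here. The rule itself uses symbols and mean levels, and no difference between groups. The list was, however, drawn up with earlier results of these data known, so counts over it are description only.

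The samples were myotubes of C2C12, an established mouse myoblast line that fuses into muscle-like fibres when serum is lowered. Cells had received 10 nM of an siRNA against Plin2, which encodes the lipid droplet coat protein perilipin 2, or 10 nM of a scrambled siRNA, and each was then kept for 20 h with albumin (BSA) alone, with 200 µM oleate, or with 200 µM palmitate, both fatty acids carried at 2.5 molecules per BSA. Every one of the 6 combinations was a single whole-transcript Affymetrix array, 3 with Plin2 siRNA and 3 with scrambled siRNA, and all cells had been transfected and differentiated. The values are log2 expression, so a difference of 1 is a factor of 2. Each combination has 1 array, so a gene's own error for the siRNA difference is its variation over the 3 treatments. Nothing in the labels says that the arrays came from separate cultures. The standard errors given here also draw on other probe sets of like intensity, with 2 residual and 9.21 prior degrees of freedom. Without that sharing, 0 named probe sets passed for the siRNA.

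Cytosolic synthetases supply the ribosomes of the cytosol, and several of them are held together with the scaffold proteins of the multisynthetase complex. Many cytosolic synthetase genes are known targets of ATF4, the transcription factor that the integrated stress response raises when amino acids run short, together with genes of amino acid transport and of serine and one-carbon metabolism. The mitochondrial enzymes are mostly products of separate genes. Gars and Kars are the exceptions, since each encodes both forms, and glutaminyl transfer RNA of mitochondria is made by a detour through the glutamyl form, so the mitochondrial list has no glutaminyl member.

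The response element of ATF4 was searched for in the promoters because the lists include known ATF4 targets. The letters used were TGATGNAA, with N for any base, on either strand, in RefSeq promoter windows of mouse build GRCm38.p6 that run from 250 bases before to 50 after the start of a transcript. Of all 27025 genes in that promoter table, 4.51% held a match. Among cytosolic synthetases 5 of the 13 genes with a window did (Aars, Gars, Iars, Tars and Yars), and among mitochondrial synthetases 0 of 14 did. A match is only a run of letters and was not tested as a binding site, and a window without one says nothing of ATF4. The windows of 4 cytosolic genes with a match and of Iars2, the mitochondrial partner of Iars, are printed 5′ to 3′ on the gene's own strand to show where the letters lie. Capitals mark the match, and Iars2 has none.
Gars (chr6:55037751-55038050, + strand): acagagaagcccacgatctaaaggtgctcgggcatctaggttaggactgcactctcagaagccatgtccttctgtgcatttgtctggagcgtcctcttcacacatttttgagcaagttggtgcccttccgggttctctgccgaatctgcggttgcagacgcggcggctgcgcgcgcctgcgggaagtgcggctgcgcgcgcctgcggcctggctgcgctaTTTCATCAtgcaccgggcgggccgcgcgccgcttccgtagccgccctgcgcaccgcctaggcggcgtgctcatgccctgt
Iars (chr13:49681880-49682179, + strand): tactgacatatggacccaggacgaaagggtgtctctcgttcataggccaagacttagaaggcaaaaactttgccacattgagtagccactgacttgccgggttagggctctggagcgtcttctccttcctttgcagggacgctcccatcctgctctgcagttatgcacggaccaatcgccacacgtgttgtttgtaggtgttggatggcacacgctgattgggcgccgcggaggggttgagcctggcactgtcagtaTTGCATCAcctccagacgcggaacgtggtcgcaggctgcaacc
Tars (chr15:11399609-11399908, - strand): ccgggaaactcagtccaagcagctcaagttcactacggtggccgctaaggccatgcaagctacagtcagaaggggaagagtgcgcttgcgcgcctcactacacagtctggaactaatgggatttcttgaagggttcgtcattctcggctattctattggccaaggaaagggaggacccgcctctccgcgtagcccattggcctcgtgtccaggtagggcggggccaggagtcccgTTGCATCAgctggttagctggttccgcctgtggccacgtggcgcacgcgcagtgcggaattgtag
Yars (chr4:129189653-129189952, + strand): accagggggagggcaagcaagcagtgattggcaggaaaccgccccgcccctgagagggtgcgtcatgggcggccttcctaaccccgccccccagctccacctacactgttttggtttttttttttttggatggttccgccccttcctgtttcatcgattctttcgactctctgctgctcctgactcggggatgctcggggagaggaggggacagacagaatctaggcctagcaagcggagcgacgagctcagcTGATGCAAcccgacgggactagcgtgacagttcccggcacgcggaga
Iars2 (chr1:185329352-185329651, - strand): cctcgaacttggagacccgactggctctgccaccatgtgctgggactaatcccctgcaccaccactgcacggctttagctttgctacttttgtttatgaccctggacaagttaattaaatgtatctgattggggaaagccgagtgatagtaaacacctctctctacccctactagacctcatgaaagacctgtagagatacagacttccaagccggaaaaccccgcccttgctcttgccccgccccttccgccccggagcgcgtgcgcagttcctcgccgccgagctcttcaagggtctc
The matched letters began 30 bases before the annotated start in Gars and 15 before it in Tars, counted as -30 and -15, and at positions 8 and 4 after it in Iars and Yars. In Yars they lie on the gene's strand. In the other 3 they lie on the opposite strand, so the printed capitals are the reverse complement. Genes for Cars, Hars, Lars, Nars, Rars, Vars and Wars had no entry in the table.

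The label of the knockdown was checked first. Plin2 read 6.95, 7.63 and 7.45 on the Plin2 siRNA arrays with BSA, oleate and palmitate, against 9.29, 10.03 and 10.10 on the scrambled arrays in that order. It fell by 2.47 on the log2 scale (SE 0.08, limma adjusted p = 2.3e-08), a factor of 5.53. Across all 21789 named probe sets, 17.1% passed the threshold of an adjusted p under 0.05 for the siRNA, 8.58% falling and 8.5% rising, and the median change was 0.01. Array medians ranged from 4.94 to 5.02. The labelled cell type had its markers: the 8 myotube genes, such as Myog, Myh3 and Acta1, read 9.36 to 13.66 with Plin2 siRNA and 9.28 to 13.67 with scrambled siRNA, while 4 adipocyte genes read 3.41 to 5.34 and 3.42 to 5.00.

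Cytosolic synthetases were lower with Plin2 siRNA. Of the 18 measured, 9 fell, 1 rose and 8 did not pass, against 8.58% of all named probe sets falling and 8.5% rising. The changes of 17 of the 18 lay below 0, with a median of -0.20, against 48.2% below 0 among all named probe sets. Bright probe sets pass more often, so the share was also taken over the 2881 named probe sets with a mean in the range of these genes, where 19.3% fell and 19.2% rose. The call count varied with the array left out: 4 in place of 9 fell without either BSA array and 12 without either oleate array. Calls over all named probe sets also dropped without a BSA array, from 3721 to 2215 or 2213. They were 3836 or 3835 without an oleate array. Whether the variation in count is particular to these genes was not tested. The median moved between -0.26 and -0.16 when any single array was left out. Leaving out 1 array of a treatment takes that whole pair out of the siRNA estimate. The 6 removals therefore gave only 3 distinct estimates per gene.

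**Figure D1:**
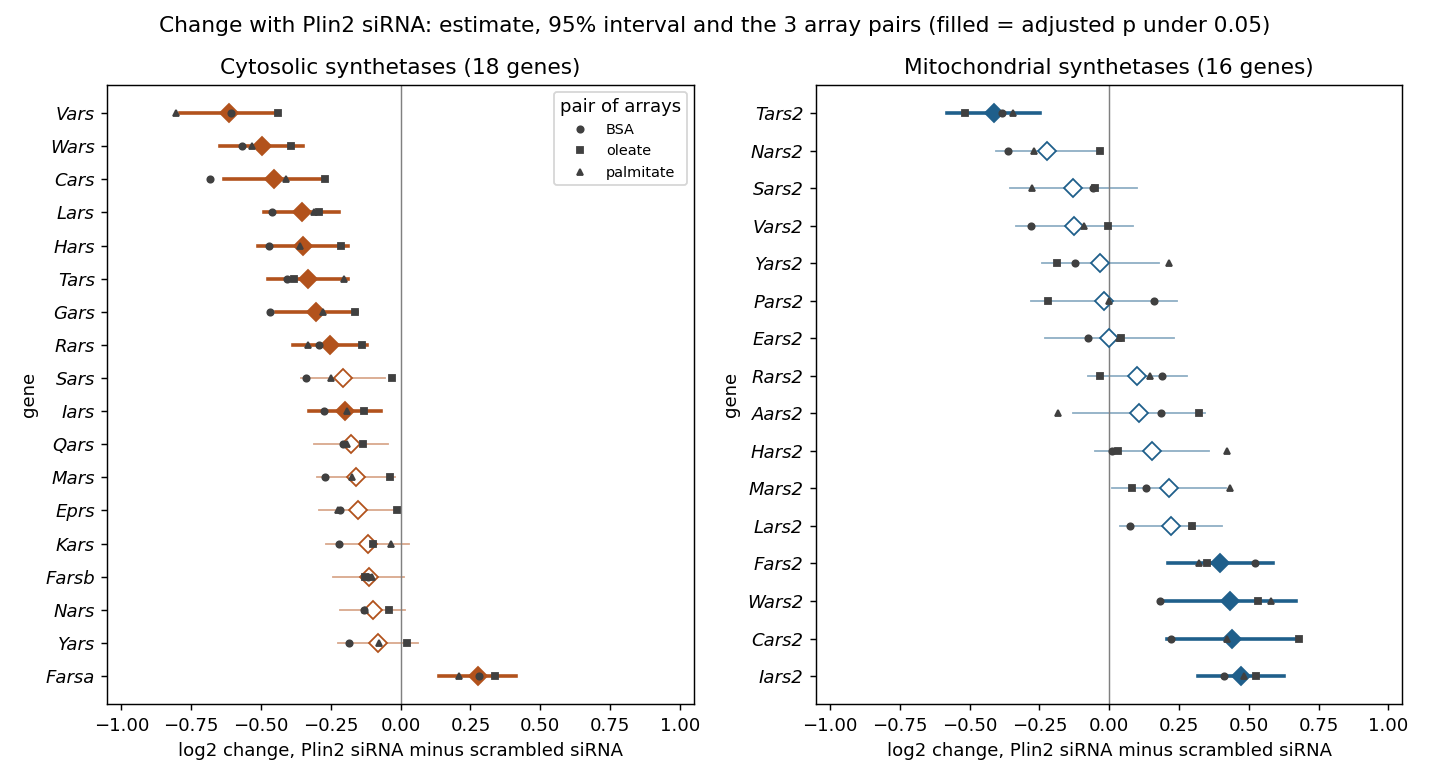
Log2 change with Plin2 siRNA (Plin2 siRNA minus scrambled, x axis) of the 18 cytosolic (left) and 16 mitochondrial (right) synthetase genes, with diamonds for the fitted estimate, lines for its 95% interval, and small symbols for the difference within each treatment; filled diamonds have an adjusted p under 0.05. On the left 17 of 18 estimates lie below 0, from -0.62 for Vars to 0.28 for Farsa, and on the right they run from -0.41 for Tars2 to 0.47 for Iars2.

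Among enzymes that act outside the multisynthetase complex, 11 of 12 genes were measured, and 6 fell, 1 rose and 4 did not pass, with a median change of -0.30. In the brightness range of the cytosolic list, 19.3% of named probe sets fell and 19.2% rose. Vars, the valyl enzyme, moved the most. It read 8.76, 8.70 and 8.65 with Plin2 siRNA in BSA, oleate and palmitate, against 9.37, 9.14 and 9.45 with scrambled siRNA. All 3 knockdown arrays were below all 3 scrambled arrays, and the gap was widest in palmitate. The fitted change was -0.62 (SE 0.08, 95% interval -0.79 to -0.44, limma adjusted p = 0.00029), which is 1.53-fold lower.

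Wars, the tryptophanyl enzyme, which interferon also induces, read 9.05, 8.98 and 9.08 with Plin2 siRNA, against 9.62, 9.37 and 9.61 with scrambled siRNA. The Plin2 siRNA arrays lay close together and below every scrambled array. Its change was -0.50 (SE 0.07, 95% interval -0.65 to -0.35, adjusted p = 0.00041). Cars, the cysteinyl enzyme, read 9.24, 9.44 and 9.38 with Plin2 siRNA, against 9.92, 9.71 and 9.79 with scrambled siRNA, and again the groups did not overlap. Its difference was larger in BSA, at -0.68, than in oleate, at -0.27, and the fitted change was -0.45 (SE 0.08, 95% interval -0.63 to -0.28, adjusted p = 0.0024).

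Hars, the histidyl enzyme, read 8.68, 8.80 and 8.95 with Plin2 siRNA, against 9.15, 9.01 and 9.32 with scrambled siRNA. The highest knockdown array, that of palmitate, was just below the lowest scrambled one, that of oleate. The change was -0.35 (SE 0.07, 95% interval -0.51 to -0.19, adjusted p = 0.0066). Tars, the threonyl enzyme, read 10.07, 10.02 and 10.07 with Plin2 siRNA, against 10.47, 10.40 and 10.27 with scrambled siRNA. Here the smallest gap was in palmitate, and the change was -0.33 (SE 0.06, 95% interval -0.47 to -0.19, adjusted p = 0.0044). Gars, the glycyl enzyme of both compartments, fell by 0.30 (SE 0.07, adjusted p = 0.0082), with 11.08, 11.15 and 11.06 on Plin2 siRNA arrays against 11.55, 11.31 and 11.33 on scrambled arrays. Without either BSA array the falls of Hars, Tars and Gars no longer passed, while those of Vars, Wars and Cars passed without any single array.

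Phenylalanyl synthetase of the cytosol is built from 2 gene products, the catalytic subunit from Farsa and its partner subunit from Farsb, and their values went different ways. Farsa read 9.97, 9.93 and 10.01 with Plin2 siRNA, against 9.69, 9.59 and 9.80 with scrambled siRNA. It was the one cytosolic gene whose knockdown arrays all lay above its scrambled arrays, with a change of 0.28 (SE 0.06, 95% interval 0.14 to 0.41, adjusted p = 0.01). The call was lost without either BSA array. Farsb read 10.37, 10.21 and 10.38 with Plin2 siRNA, against 10.48, 10.34 and 10.48 with scrambled siRNA, and its groups overlapped. Its change of -0.11 (SE 0.06, 95% interval -0.24 to 0.01, adjusted p = 0.24) did not pass, and the difference between the subunits was not tested. Among the other enzymes outside the complex, the values were -0.21 for the seryl enzyme gene Sars (adjusted p = 0.062), -0.10 for the asparaginyl Nars and -0.08 for the tyrosyl Yars, and none of these passed.

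Of the 8 synthetases of the multisynthetase complex, 7 were measured, and 3 fell, 0 rose and 4 did not pass. The shares for named probe sets in the brightness range of the cytosolic list were 19.3% falling and 19.2% rising. The changes of all 7 were below 0, with a median of -0.18, and in each of the 7 genes the 3 Plin2 siRNA arrays lay below the 3 scrambled arrays, an arrangement found in 14.7% of all named probe sets. Lars, the leucyl enzyme, which also takes part in leucine sensing by mTORC1, read 10.42, 10.37 and 10.47 with Plin2 siRNA, against 10.88, 10.66 and 10.78 with scrambled siRNA. The change was -0.35 (SE 0.06, 95% interval -0.49 to -0.22, adjusted p = 0.0021), and it passed without any single array. Rars, the arginyl enzyme, fell by 0.25 (SE 0.06, adjusted p = 0.013), with 11.02, 10.93 and 11.01 on the knockdown arrays against 11.31, 11.06 and 11.34 on the scrambled arrays. Iars, the isoleucyl enzyme, fell by 0.20 (SE 0.06, adjusted p = 0.037), with 10.80, 10.71 and 10.77 against 11.07, 10.85 and 10.96 for scrambled siRNA. The fall of Rars was lost without either BSA array, and that of Iars without either BSA or either palmitate array. A second probe set of Iars gave a change of -0.14 (SE 0.06, adjusted p = 0.15), and its groups overlapped. The other 4, the glutaminyl Qars (-0.18), methionyl Mars (-0.16), glutamyl-prolyl Eprs (-0.15) and lysyl Kars (-0.12), had adjusted p values of 0.066, 0.13, 0.15 and 0.31.

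The complex is held together by 3 scaffold proteins with no synthetase activity. Of their 3 genes 2 fell, against 8.58% of all named probe sets and 19.3% of those in the brightness range of the cytosolic list. Aimp2 read 8.88, 8.68 and 8.87 with Plin2 siRNA, against 9.37, 8.98 and 9.19 with scrambled siRNA, a change of -0.37 (SE 0.07, adjusted p = 0.0039). Eef1e1, which encodes the scaffold protein AIMP3, read 9.77, 9.73 and 9.79 against 10.13, 10.04 and 10.21 for scrambled siRNA, a change of -0.36 (SE 0.06, adjusted p = 0.0018). Aimp1 had a change of -0.20 that did not pass (adjusted p = 0.13). In each scaffold gene the knockdown arrays were all below the scrambled ones, as in 14.7% of all named probe sets. Synthetases also divide into a pair of classes by the fold of their catalytic domain. Of 9 class I cytosolic genes 6 fell and 0 rose, with a median change of -0.25, and of the 8 measured class II genes 3 fell and 1 rose, with a median of -0.16. Among named probe sets in the brightness range of the cytosolic synthetases, 19.3% fell and 19.2% rose. Whether the classes differ was not tested.

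**Figure D2:**
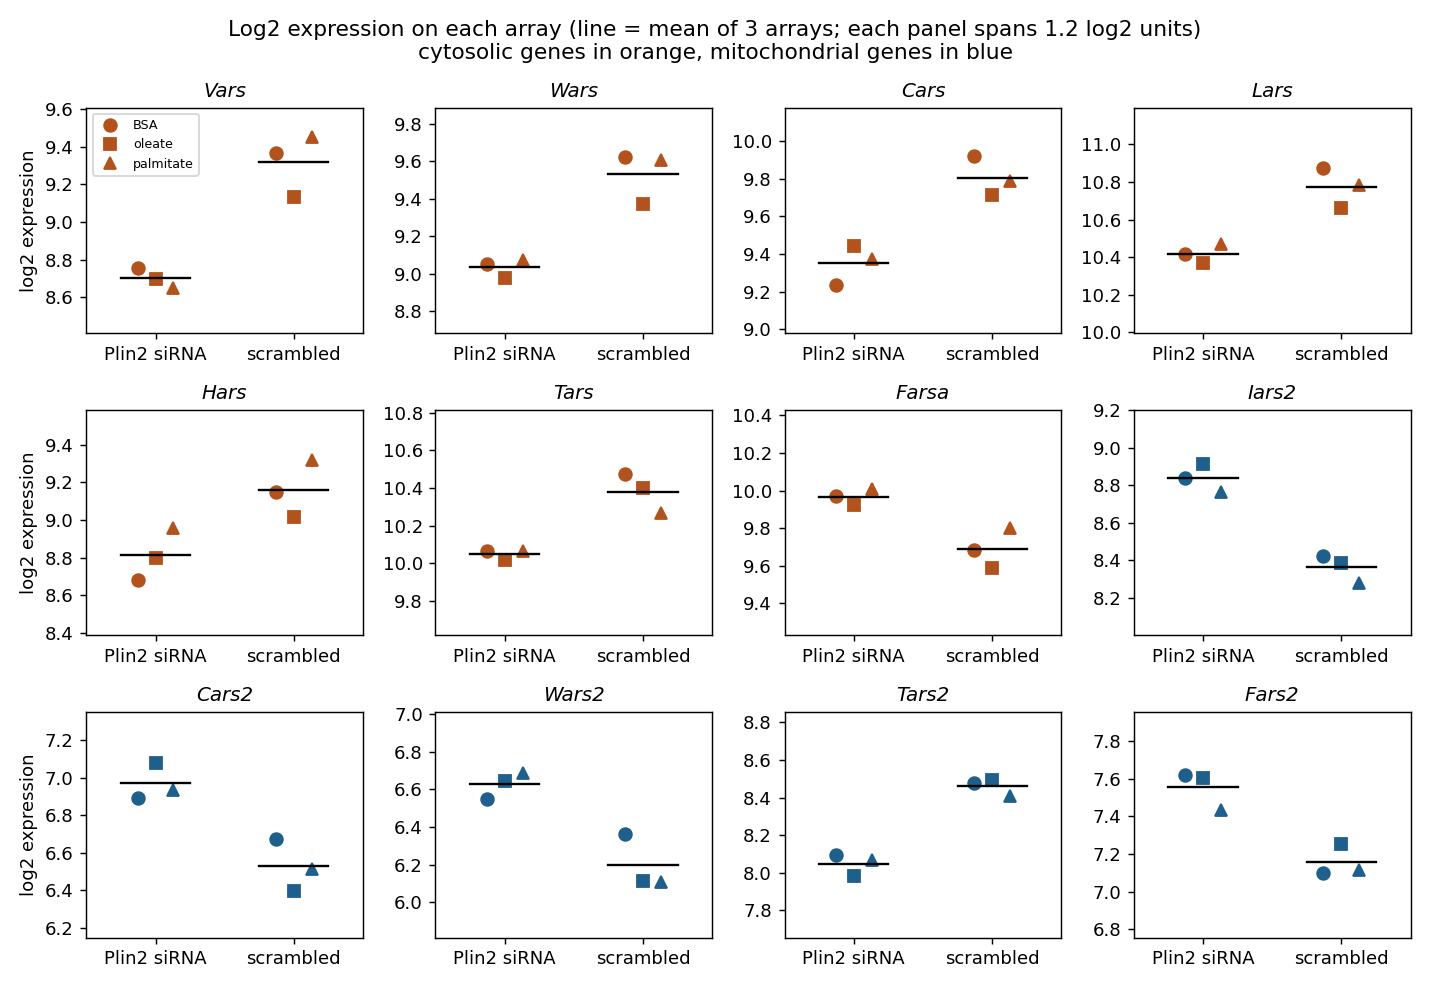
Log2 expression (y axis, 1.2 units in every panel) on each array for 7 cytosolic (orange) and 5 mitochondrial (blue) synthetase genes, with Plin2 siRNA left and scrambled siRNA right; symbols mark the treatment and lines the mean of 3 arrays. In the 6 cytosolic genes other than Farsa and in Tars2 every Plin2 siRNA array is below every scrambled array, and in Farsa, Iars2, Cars2, Wars2 and Fars2 every one is above.

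Mitochondrial synthetases moved in both directions. Of 16, 4 rose, 1 fell and 11 did not pass, and the changes had a median of 0.10, with 10 above 0 and 6 below. Among the 8148 named probe sets with a mean in the range of these genes, 12.4% rose and 12.3% fell. In 6 genes all knockdown arrays were above all scrambled arrays, in 2 they were all below, and in 8 the groups overlapped, where 15.6% and 14.7% of all named probe sets were wholly above and wholly below. These probe sets were dimmer, with values from 5.18 to 8.91 with Plin2 siRNA and from 5.22 to 8.55 with scrambled siRNA, and their standard errors were 0.07 to 0.12, against 0.05 to 0.08 in the cytosolic list. A change of a given size was therefore harder to call here. Leaving out any single array left 3 in place of 4 that rose, and the median moved between 0.05 and 0.13.

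Iars2, the mitochondrial isoleucyl enzyme, had the largest rise. It read 8.84, 8.91 and 8.76 with Plin2 siRNA, against 8.43, 8.39 and 8.28 with scrambled siRNA, with a gap of similar size in each treatment. The change was 0.47 (SE 0.07, 95% interval 0.32 to 0.63, adjusted p = 0.00076), or 1.39-fold, and it passed without any single array. Cars2, the mitochondrial cysteinyl enzyme, which also makes cysteine persulfides, read 6.89, 7.08 and 6.94 with Plin2 siRNA, against 6.67, 6.40 and 6.51 with scrambled siRNA. The groups did not overlap, and the gap of 0.68 in oleate exceeded the gap of 0.22 in BSA. The change was 0.44 (SE 0.11, 95% interval 0.21 to 0.67, adjusted p = 0.014).

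Wars2, the mitochondrial tryptophanyl enzyme, read 6.55, 6.65 and 6.69 with Plin2 siRNA, against 6.36, 6.11 and 6.11 with scrambled siRNA. Its gap was smallest in BSA, and the change was 0.43 (SE 0.11, 95% interval 0.19 to 0.67, adjusted p = 0.018). Fars2, the mitochondrial phenylalanyl enzyme, which works as a single chain unlike its cytosolic counterpart, read 7.62, 7.61 and 7.44 with Plin2 siRNA, against 7.10, 7.25 and 7.12 with scrambled siRNA. All 3 knockdown arrays were higher, with a change of 0.40 (SE 0.09, 95% interval 0.21 to 0.59, adjusted p = 0.0076). The rise of Cars2 no longer passed without either oleate array, that of Wars2 without either palmitate array, and that of Fars2 without either BSA array.

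Tars2, the mitochondrial threonyl enzyme, was the member of this list that fell. It read 8.10, 7.98 and 8.07 with Plin2 siRNA, against 8.48, 8.50 and 8.41 with scrambled siRNA, and the groups were far apart relative to their spread. The change was -0.41 (SE 0.08, 95% interval -0.58 to -0.25, adjusted p = 0.0028), and it passed without any single array. Of the 11 others, Lars2 and Mars2 each had a change of 0.22 (adjusted p = 0.097 and 0.16), with every knockdown array above every scrambled one, and Nars2 one of -0.22 (adjusted p = 0.1). Hars2, Aars2 and Rars2 had changes of 0.15, 0.11 and 0.10. Ears2, Pars2, Yars2, Vars2 and Sars2 lay between -0.13 and 0.00.

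Set against each other within each treatment, the cytosolic median minus the mitochondrial median of the siRNA difference came to -0.39 with BSA, -0.17 with oleate and -0.39 with palmitate. The cytosolic medians were -0.28, -0.13 and -0.21, with 17, 16 and 17 of 18 genes below 0, and the mitochondrial ones 0.10, 0.04 and 0.18, with 6, 7 and 5 of 16 genes below 0. Over all named probe sets the medians in those treatments were 0.02, 0.03 and -0.03. So the cytosolic list lay below the mitochondrial one in each of the 3 array pairs, with the smallest gap in oleate. No p is attached to this comparison, since the genes of a list are not replicates.

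Amino acids served by a separate gene in each compartment allow the comparison to be made enzyme by enzyme. There were 15 such pairings, in which Farsa stood for the cytosolic phenylalanyl enzyme and Eprs, which carries both glutamyl and prolyl activity, served 2 of the 15. The siRNA change of the cytosolic gene was lower than that of its mitochondrial partner in 13 of 15, and in 10 of 15 it was lower in all 3 treatments. The median difference was -0.35.

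Tryptophan had the widest separation, with a change of -0.50 in Wars and 0.43 in Wars2, a difference of -0.93, and with -0.75, -0.93 and -1.11 in BSA, oleate and palmitate. Cysteine followed, with -0.45 in Cars and 0.44 in Cars2, a difference of -0.90. For isoleucine the change was -0.20 in Iars and 0.47 in Iars2, and the difference hardly varied with treatment, at -0.68, -0.66 and -0.67. These are the 3 amino acids for which both partners passed the threshold in opposite directions. Leucine, histidine and valine had differences of -0.58, -0.50 and -0.49. In valine both partners lay below 0, with -0.62 in Vars and -0.12 in Vars2, and in phenylalanine both lay above, with 0.28 in Farsa and 0.40 in Fars2. Threonine was one of the 2 exceptions: Tars and Tars2 both fell, by 0.33 and 0.41, and the difference of 0.08 changed sign between treatments. Asparagine was the other, at 0.12, with neither Nars nor Nars2 past the threshold.

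**Figure D3:**
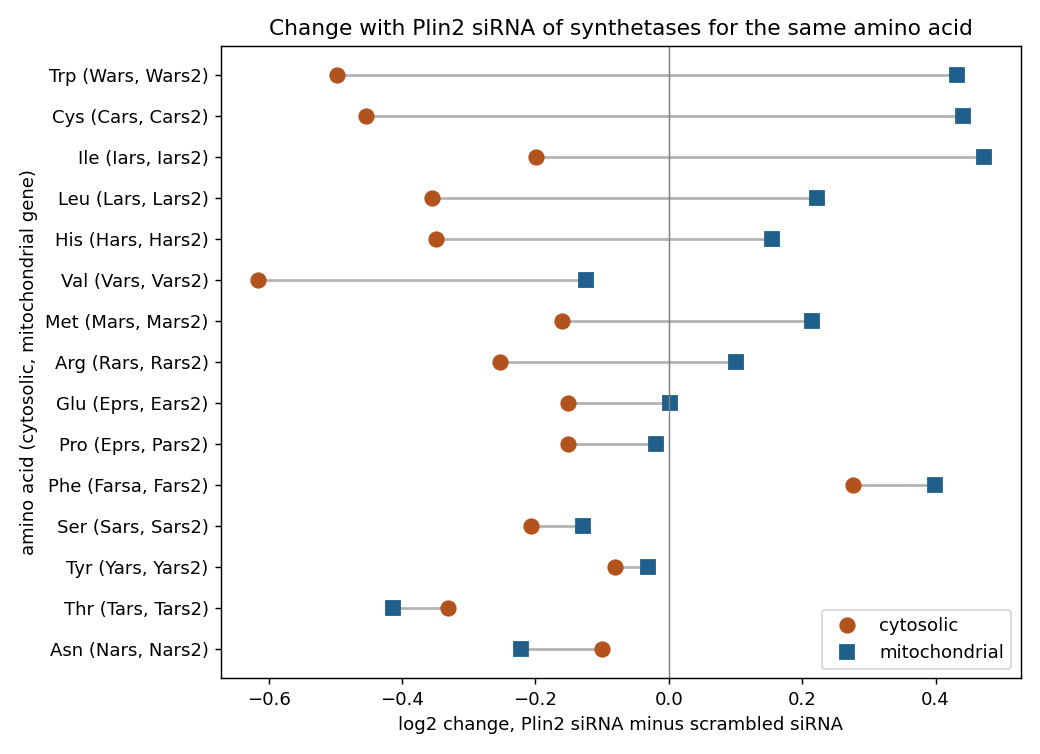
Log2 change with Plin2 siRNA (Plin2 siRNA minus scrambled, x axis) for the cytosolic (orange circle) and the mitochondrial (blue square) synthetase of each of 15 amino acids (y axis). The circle lies left of the square in 13 of 15, with the longest lines for Trp, Cys and Ile, and right of it in Thr and Asn.

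Regulators and companions of the cytosolic enzymes were examined as lists of their own. Of 13 integrated stress response regulators, 4 fell and 0 rose, against 8.58% falling and 8.5% rising among all named probe sets. In the brightness range of the mitochondrial list, 12.3% fell and 12.4% rose. The median change of the regulators was -0.06, and 4 of the 13 lay above 0, up to 0.31 for Eif2ak4 (adjusted p = 0.065). Atf4 read 9.42, 9.43 and 9.44 with Plin2 siRNA, against 9.83, 9.69 and 9.78 with scrambled siRNA, and fell by 0.33 (SE 0.06, adjusted p = 0.0042). Atf3, a stress-induced relative of ATF4, fell by 1.60 (adjusted p = 3.7e-05), with 5.32, 5.44 and 5.44 against 6.68, 6.71 and 7.61 for scrambled siRNA. Trib3, a pseudokinase that restrains ATF4, and Ppp1r15a, the subunit that directs dephosphorylation of eIF2α, fell by 0.65 and 0.54 (adjusted p = 0.0036 and 0.0025). None of the 4 kinases of eIF2α (Eif2ak1 to Eif2ak4) passed.

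Of 15 measured ATF4 targets of amino acid supply, 12 fell and 0 rose, with a median change of -0.48, against the same background. Mthfd2, of mitochondrial one-carbon metabolism, had the largest fall, at -1.07 (adjusted p = 2.1e-05), with 8.82, 8.98 and 9.00 on Plin2 siRNA arrays and 10.23, 9.83 and 9.97 on scrambled arrays. Nupr1, a stress-induced chromatin protein, fell by 0.84, the cationic amino acid carrier Slc7a1 by 0.79 and the cystine carrier Slc7a11 by 0.71. The median of -0.48 stands beside one of -0.20 in the cytosolic synthetases, and the difference between the lists was not tested. The search for TGATGNAA matched 5 of the 15 targets that had a promoter window (Asns, Pycr1, Slc7a11, Chac1 and Nupr1) and 2 of 12 regulators (Atf3 and Trib3). Among the cytosolic synthetases, Gars, Iars and Tars held the letters and fell, while Yars held them and had a change of -0.08 that did not pass. The measured genes with a window and no match were Eprs, Farsa, Farsb, Kars, Mars, Qars and Sars. None of these passed as a fall, and Farsa rose. Apart from Farsa their changes all lay below 0, from -0.21 in Sars to -0.11 in Farsb, beside -0.20 in Iars. Cars, Hars, Lars, Rars, Vars and Wars fell and had no window. Whether a match goes with a fall was not tested.

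Markers of myotubes also moved with the siRNA, for which 8.58% of all named probe sets fell and 8.5% rose. The myotube probe sets were bright, with a median level of 11.88, and bright ones pass more often. In the brightness range of the cytosolic list, 19.3% fell and 19.2% rose. Of 8 myotube genes, 6 fell, including Myog, the transcription factor of terminal differentiation, by 0.69 (adjusted p = 6.6e-06), Myh8 by 0.37, Tnnt3 by 0.28 and Myh3 by 0.27. Their mean level was 11.47 to 11.51 on the Plin2 siRNA arrays and 11.64 to 11.87 on the scrambled arrays. Of 4 myoblast genes 1 rose, Myf5 (0.63, adjusted p = 0.0012), and the list's mean level was 7.29 to 7.44 against 7.15 to 7.26 for scrambled siRNA. The changes of the other myoblast genes were 0.20 in Pax7, -0.19 in Mki67 and near 0 in Cdk1, so Myf5 moved most within that mean. Of 3 fibroblast genes, Pdgfra rose (0.36, adjusted p = 0.028), while Dpt had -0.53 (adjusted p = 0.19) and Lum was near 0, with list means of 4.54 to 4.87 against 4.62 to 4.96. Of 4 macrophage genes Cd68 fell by 0.53 (adjusted p = 0.0086), with list means of 3.81 to 3.87 against 3.87 to 4.06. None of 4 adipocyte genes passed, with means of 4.17 to 4.42 against 4.14 to 4.34. With 3 or 4 genes a list, counts of 0 or 1 do not set these lists apart from all named probe sets. The part of these shifts in the synthetase results was not tested, and in bulk RNA fewer cells of a type and less RNA per cell cannot be told apart. For scale, the mean level of the 18 cytosolic synthetases was 10.10 to 10.12 with Plin2 siRNA and 10.25 to 10.42 with scrambled siRNA, and that of the 16 mitochondrial ones 7.24 to 7.27 and 7.12 to 7.22.

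Neither fatty acid gave a called change in any synthetase. Of the 34 genes, 0 passed for oleate against BSA, 0 for palmitate against BSA and 0 for palmitate against oleate in the additive limma fit, where 0.0734%, 0.00918% and 0.262% of all named probe sets passed. For oleate that background was 0.0413% falling and 0.0321% rising. Without correction, p was under 0.05 for 1 cytosolic and 1 mitochondrial gene in oleate, 1 and 0 in palmitate, and 2 and 1 in palmitate against oleate. With 2 arrays on each side of these contrasts, small changes were not detectable. The median change with oleate was -0.07 in the cytosolic list, with 17 of 18 genes below 0 and a range of -0.17 to 0.00, and -0.06 in the mitochondrial list, with 12 of 16 below 0, where 55% of all named probe sets lay below 0. With palmitate the medians were -0.01 and -0.05.

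The mitochondrial asparaginyl gene Nars2 came closest to a fatty acid call and was picked out after its values were seen. Across BSA, oleate and palmitate it read 8.10, 7.95 and 8.28 under Plin2 siRNA, against 8.47, 7.98 and 8.55 under scrambled siRNA. Oleate was thus lowest under both siRNAs. Palmitate minus oleate was 0.45 (SE 0.10, 95% interval 0.23 to 0.68, adjusted p = 0.14), and oleate minus BSA was -0.32 (SE 0.10, adjusted p = 0.54). Leaving out either oleate array leaves a single oleate array in this contrast, so such a fit cannot decide whether the difference holds.

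Within the cytosolic list the oleate difference was not alike under the 2 siRNAs. With Plin2 siRNA the differences from BSA ran from -0.16 to 0.20, with a median of -0.01 and 10 of 18 genes below 0, where 51.1% of all named probe sets lay below 0. With scrambled siRNA they ran from -0.25 to -0.06, with a median of -0.19 and 18 of 18 genes below 0, where 56.6% of all named probe sets did. Each of these is a difference between 2 single arrays, and all genes of a column share those arrays. In palmitate the cytosolic medians were 0.01 with Plin2 siRNA and -0.05 with scrambled siRNA, with 8 and 13 of 18 genes below 0. In the mitochondrial list the medians were -0.05 and -0.08 in oleate and 0.00 and -0.10 in palmitate, in the same order of siRNAs.

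**Figure D4:**
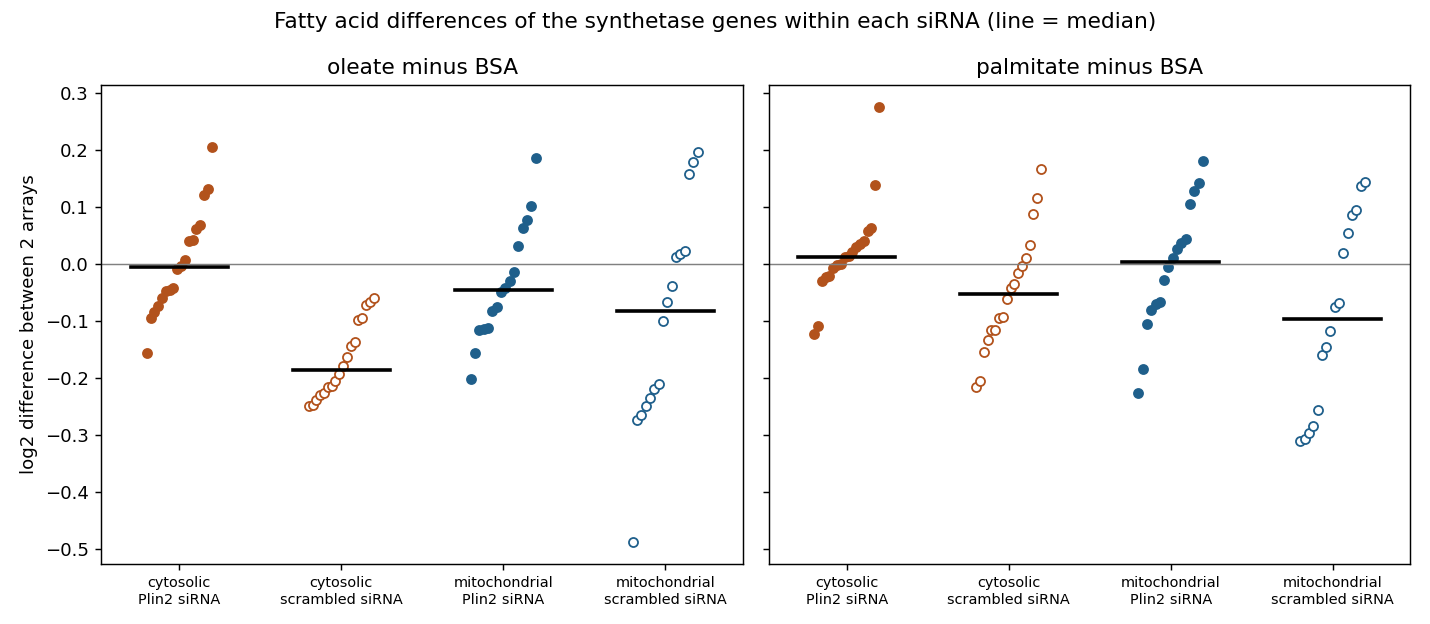
Log2 difference from BSA (y axis) of each synthetase gene in oleate (left) and palmitate (right), as 1 array minus another, for the cytosolic (orange) and mitochondrial (blue) lists with Plin2 siRNA (filled) or scrambled siRNA (open); lines are medians. The open orange points in oleate all lie below 0, with a median of -0.19, while the filled ones straddle 0 with a median of -0.01.

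The test of whether the siRNA change differed between fatty acid and BSA, an interaction term with 1 residual degree of freedom, called 0 of 34 synthetases and 0% of all named probe sets in limma. An unadjusted p under 0.05 was found for 551 of the 21789, or 2.53%, a smaller share than that threshold gives with no interaction at all. Among the 34 synthetases none had an unadjusted p under 0.05. The interaction estimates of the cytosolic genes were above 0 in 16 of 18, with a median of 0.11 and standard errors of 0.16 to 0.19. Those of the mitochondrial genes had a median of 0.12 and standard errors of 0.18 to 0.28. Among all named probe sets 48.2% lay below 0, and the median was 0.01. Every estimate rests on the same BSA arrays, so the genes are not separate observations. At this precision no single gene was called as having a different siRNA change in BSA and in fatty acid.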

How the data were processed

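RNA of 6 C2C12 myotube samples, 1 per combination of siRNA and treatment, was hybridised to whole-transcript Affymetrix arrays. The deposited values are log2 expression per probe set, made by the authors with RMA, a method that corrects background, equalises quantiles and sums up probes, per the submitters' processing notes; its version and the build were not given in the sources used here. That method sets arrays to nearly one distribution, so a shift of all genes would not be seen. Arrays were grouped by their titles.

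Of 35556 probe sets, 21789 carried 1 symbol in the platform annotation, 1621 several and 12146 were not listed in it. The named ones entered an additive linear model (siRNA and treatment, all 6 arrays) in limma 3.58.1 (R 4.3.3), with moderated variances that follow intensity (2 residual and 9.21 prior degrees of freedom), and p-values were adjusted by Benjamini-Hochberg over all of them at a threshold of 0.05. The model was tested on simulated data. The interaction of siRNA with fatty acid was fitted separately.

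For a gene with several probe sets the one with the highest mean was used. Described in full were the 6 members per compartment with the largest called siRNA change (5 mitochondrial genes passed), and for other lists up to 4 called genes. Farsa, Farsb and Nars2 were singled out after their values were seen. Uncalled genes named in other lists, such as Eef2 and Eif2ak4, also lie outside that rule. The members, the partner pairings and the 15 further lists were chosen with earlier results of these data known. A list is described by counts and medians beside those of all named probe sets, with no p over the list. Promoter windows are from RefSeq, build GRCm38.p6. Alternatives changed the variance model, the probe sets, the normalization, the filter, the arrays or the design. The number of arrays limits the precision. No sample was left out.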

Additional observations from a re-analysis of the deposited data

How the results depend on the processing

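The medians of the siRNA change kept their sign in all 14 alternatives. They ranged from -0.26 to -0.16 in the cytosolic list and from 0.05 to 0.13 in the mitochondrial list. Changing the variance model, adding unnamed probe sets, dropping the dimmest or omitting the treatment term cannot move an estimate in this balanced design. Those alternatives returned the main medians of -0.20 and 0.10. The sign could change only with quantile normalization, median centring or removal of an array. Averaging of a gene's probe sets touched only Iars among the synthetases, so it could not reverse either median. Calls depended more on the variance model than on the scaling. Across all named probe sets the siRNA gave 3721 calls, 2403 without the intensity trend, 2159 with unnamed probe sets in the fit, 0 with no moderation of the variances, where 2 residual degrees of freedom remain, and 2213 to 3836 with 1 array left out. In the same order the cytosolic genes that fell were 9, 5, 5, 0 and 4 to 12, those that rose 1, 0, 0, 0 and 0 to 1. The mitochondrial genes that rose were 4, 4, 1, 0 and 3, and those that fell 1, 1, 1, 0 and 1 to 2. Vars, Wars, Cars, Lars, Iars2 and Tars2 kept their call in 13 of 14 alternatives and lost it with no moderation, while Iars kept it in 4 of 14. The 14 include the 6 single-array removals, which give only 3 distinct estimates per gene. Estimates of uncalled genes near 0 changed sign: Ears2 was -0.0031 after quantile normalization, -0.018 after median centring and -0.020 to 0.040 with 1 array left out, where Yars2 ran from -0.15 to 0.045 and Pars2 from -0.11 to 0.082.

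Oleate calls over all named probe sets were 16, 2 without the trend, 0 with all probe sets, 31 without the dimmest probe sets (the lowest 0.333 of them by mean), 0 with no moderation, 64 with only the arrays compared and 3 to 262 with 1 array left out. They split into 7 rising and 9 falling, and after centring into 7 and 5. Palmitate calls were 2, and 0 with all probe sets, 0 with no moderation, 119 with only the arrays compared and 2 to 117 with 1 array left out. Palmitate against oleate gave 57, and 0 without the trend, 0 with all probe sets, 25 after quantile normalization, 0 with no moderation, 86 with only the arrays compared and 30 to 538 with 1 array left out. The interaction gave 0 in each of 5 alternatives. The cause of these shifts was not tested. A share of named probe sets in the members' brightness range was added after seeing the data. The fit pairs the arrays by treatment, and without the treatment term it gave 3167 siRNA calls and 7 cytosolic genes that fell. The labels give no replicate numbers, so no further block was fitted.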

Other observations

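Genes near the synthetases in function were also counted, against 17.1% of all named probe sets called in either direction. None of 5 synthetase-related genes (Tarsl2, Aarsd1, Prorsd1, Pstk and Sepsecs) passed, with a median siRNA change of 0.06 and a lowest adjusted p of 0.26. None of 5 measured cytosolic elongation factors passed either, and their median was 0.16. With 5 genes a list, counts of 0 do not set these lists apart from that background. Eef2, which moves the ribosome along the message, read 12.61, 12.67 and 12.62 with Plin2 siRNA in BSA, oleate and palmitate, against 12.50, 12.46 and 12.47 with scrambled siRNA, a change of 0.16 (adjusted p = 0.057).

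Of 16 mitochondrial gene expression factors, 3 rose and 1 fell, with a median of 0.08, against 8.5% rising and 8.58% falling among all named probe sets. In the brightness range of the mitochondrial synthetases, 12.4% rose and 12.3% fell. Mtrf1l, a mitochondrial release factor, read 6.90, 6.76 and 6.65 with Plin2 siRNA, against 5.73, 6.20 and 6.05 with scrambled siRNA, and rose by 0.77 (adjusted p = 0.0014). Mtif2, the mitochondrial initiation factor, rose by 0.34 (adjusted p = 0.018), and Gatc, a subunit of the amidotransferase that completes mitochondrial glutaminyl transfer RNA, by 0.32 (adjusted p = 0.016). Gfm2, which recycles mitochondrial ribosomes, fell by 0.38 (adjusted p = 0.0093). These p-values are from limma over all named probe sets.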
